A study of Mus musculus with 8 samples.

Results

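The ASMM10UP probes are 1 of the identifier classes printed on a mouse long non-coding RNA (lncRNA) and mRNA microarray. They were taken as all non-control probes whose name begins with ASMM10UP, and numbered 923 of the 60930 non-control probes on the array. Their names run from ASMM10UP001 to ASMM10UP923 without a gap, and each probe has 1 spot. The largest class, ASMM10P, holds 58141 probes, and smaller classes are named humanlincRNA (1104 probes), mouselincRNA (649), MM9LINCRNAEXON (83) and MM9NEGATIVE (15). The files carry no gene name, accession, sequence or position for an ASMM10UP probe, and the systematic name equals the probe name for all 923. The sources used here do not say what the letters UP stand for, so the probes are described by identifier alone and no function is assigned to any of them.

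Srf encodes serum response factor, a DNA-binding protein that recognises CArG boxes in the promoters of many cytoskeletal and contractile genes. Myocd encodes myocardin, a coactivator that binds serum response factor and drives the contractile programme of smooth muscle and heart. Long non-coding RNAs are transcripts without a recognised protein product, and many are expressed at low levels and in few tissues. Each probe on such an array is a short designed oligonucleotide, and it reports the brightness of labelled RNA bound to it, which depends on the probe as well as on the RNA.

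RNA was measured in 5 groups on 8 one-colour arrays. Aortic smooth muscle cells lacking Srf and given an empty adenovirus made up 2 arrays, wild-type cells given a Myocd adenovirus 2, freshly isolated wild-type aorta 1, freshly isolated wild-type liver 1, and wild-type cells given the empty adenovirus 2. All cultured cells, the controls included, were at passage 3 and had received virus at a multiplicity of infection of 100 for 3 days. The labels do not give the Srf allele, how it was deleted, or the strain, age and number of animals. They also do not say whether replicates were separate cultures, so the p-values rest on an array-to-array spread that may be technical. Slide 1 held the knockout and wild-type cultures and slide 2 held Myocd cells, aorta and liver, so the effect of Myocd and that of the slide cannot be told apart. No probe was identified as Srf or Myocd or as a smooth muscle or liver marker, and the labels were therefore not checked against those genes. The named probes of the array are for 15 genes, Actb and Gapdh among them.

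A level here is the log2 processed intensity of a probe minus the 75th percentile of that array, so a level of 0 lies at the 75th percentile of the array. That percentile stood at 452 and 498 intensity units in knockout cells, 485 and 465 in Myocd cells, 364 in aorta, 165 in liver, and 494 and 455 in wild-type cells. Liver was thus the dimmest array before scaling. After scaling, its detection floor (the lowest level well above background) lay highest, at -3.52, against -4.42 in aorta and -5.11 to -4.68 on the 6 cultured arrays. No spot was saturated.

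Most ASMM10UP probes were dim on every array. The scanner software called 372 (40.3%) and 414 (44.9%) of the 923 well above background in knockout cells, 343 (37.2%) and 357 (38.7%) in Myocd cells, 361 (39.1%) in aorta, 364 (39.4%) in liver, and 389 (42.1%) and 347 (37.6%) in wild-type cells. The groups overlapped in this count, and the spread between the 2 knockout arrays was wider than the gap between most groups. ASMM10P probes were detected more often on every array, from 63.1% in liver to 76.0% on 1 knockout array. Low detection was not particular to ASMM10UP. Per array, 35.1% to 46.0% of humanlincRNA probes and 38.2% to 50.1% of mouselincRNA probes were well above background. The median ASMM10UP level was -5.59 and -5.36 in knockout cells, -5.82 and -5.56 in Myocd cells, -5.11 in aorta, -4.34 in liver, and -5.56 and -5.72 in wild-type cells, each below the detection floor of its array. ASMM10P medians were higher on every array, between -2.92 and -2.25. Medians of the lincRNA classes were nearer to those of ASMM10UP, from -5.75 to -3.93 for humanlincRNA and -5.44 to -3.86 for mouselincRNA. Between 6.61% and 8.02% of ASMM10UP probes lay above the 75th percentile of their array, against about 26.0% of ASMM10P probes on each cultured array.

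Most ASMM10UP probes were detected either nowhere or on every array. The same held over all probes of the array, with 16.4% called on no array and 51.8% on all 8. No array called 379 of the 923 probes (41.1%) well above background, against 15.2% of ASMM10P probes. All 8 arrays called 235 probes (25.5%), against 53.0% of ASMM10P probes. The humanlincRNA and mouselincRNA classes were closer to ASMM10UP, with 41.1% and 38.2% called on no array and 27.6% and 28.5% on all 8. Detection on an intermediate number of arrays was less frequent: 108 probes were called on 1 array, 45 on 2, 26 on 3, 18 on 4, 17 on 5, 31 on 6 and 64 on 7. In that order these were 11.7%, 4.88%, 2.82%, 1.95%, 1.84%, 3.36% and 6.93% of the class. For ASMM10P the shares were 6.29%, 3.60%, 2.70%, 2.51%, 2.30%, 4.07% and 10.3%. The 365 probes called on 4 or more arrays are the same 365 ASMM10UP probes that the authors' deposited expression table holds, and none of the other 558 is in it.

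ASMM10UP probes detected everywhere were also dimmer than ASMM10P probes detected everywhere. Over the 235 such ASMM10UP probes, median levels were -2.14 and -2.09 in knockout cells, -2.17 and -2.16 in Myocd cells, -1.86 in aorta, -1.17 in liver, and -2.13 and -2.21 in wild-type cells. The 30798 ASMM10P probes of the same kind had medians from -0.68 to -0.24. Cultured groups differed from one another by about as much as replicates did, and liver stood apart with the highest median on this scale, where its floor was also highest.

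Probes of the MM9NEGATIVE class gave a second measure of background. Their name contains the word negative, and the files list them among the non-control probes. Their medians lay between -7.25 and -5.64 and the brightest of the 15 was MM9NEGATIVE012 on 6 arrays and MM9NEGATIVE016 on both Myocd arrays. Set against the brightest of them on each array, 355 (38.5%) and 373 (40.4%) ASMM10UP probes were above it in knockout cells, 413 (44.8%) and 403 (43.7%) in Myocd cells, 268 (29.0%) in aorta, 113 (12.2%) in liver, and 380 (41.2%) and 223 (24.2%) in wild-type cells. The low counts in liver, aorta and the second wild-type array go with a bright MM9NEGATIVE012, which stood at -0.85, -3.37 and -3.45 there. This measure passed more probes than the scanner's call on both Myocd arrays, where the brightest negative probe lay at -5.35 and -5.06, below the detection floor. By it, liver had the fewest ASMM10UP probes above background, whereas by the scanner's own call it had about as many as the other arrays. The low liver share was not particular to the class. Above the same cut lay 33.6% of ASMM10P probes in liver, against 55.7% to 76.1% on the other arrays. The cut in liver was set by MM9NEGATIVE012 alone, which was itself called well above background there, and the next brightest negative probe stood at -4.10.

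The brightest probes were ASMM10UP900 and ASMM10UP450. ASMM10UP900 stood at 7.59 and 7.31 in knockout cells, 7.92 and 7.98 in Myocd cells, 6.80 in aorta, 6.53 in liver, and 7.23 and 8.15 in wild-type cells. The 2 wild-type arrays enclosed the values of both other cultured groups, and no contrast called it. ASMM10UP450 stood at 6.79 and 6.88 in knockout cells, 6.84 and 6.98 in Myocd cells, 5.15 in aorta, 3.87 in liver, and 7.36 and 7.28 in wild-type cells. It was lowest in the tissues, and its knockout to wild-type change of -0.48 on the log2 scale (SE 0.14) missed the threshold in limma (adjusted p = 0.062).

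Few probes were detected in 1 group alone. Knockout cells had 1 such probe, Myocd cells 2, aorta 19 (2.06%), liver 38 (4.12%) and wild-type cells with the empty virus 2. For the class these shares were 0.108% in knockout cells and 0.217% each in Myocd and wild-type cells. For ASMM10P the shares were 0.406% in knockout cells, 0.227% in Myocd cells, 1.30% in aorta, 1.98% in liver and 0.0826% in wild-type cells. The tissues have 1 array each and the cultured groups 2, which must both pass, so these counts are not on an equal footing between tissues and cells. The 38 liver probes had liver levels from -3.36 to -0.83 (median -2.65). Among the examples given here, chosen after their values were seen, ASMM10UP835 was the brightest of them, at -0.83 in liver against -7.03 to -5.18 on the other 7 arrays. ASMM10UP711 stood at -1.39 in liver against -7.05 to -6.42 elsewhere. The 19 aorta probes were dimmer, from -4.20 to -2.69, and ASMM10UP560 led them.

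A further 14 probes (1.52%, against 0.903% of ASMM10P probes) were detected in both tissues and on no cultured array. The brightest, ASMM10UP423, stood at 1.96 in aorta and 0.44 in liver, against -6.92 to -4.96 on the 6 cultured arrays. Conversely, 11 probes (1.19%, against 2.21% of ASMM10P probes) were detected on every cultured array and in neither tissue. The brightest of these, ASMM10UP252, stood at -3.14 and -3.09 in knockout cells, -1.48 and -1.47 in Myocd cells, and -1.95 and -1.95 in wild-type cells, and was not well above background in aorta (-6.46) or liver (-5.55). Its knockout arrays lay below all 4 other cultured arrays, and limma called the change against wild type (-1.17, SE 0.13, adjusted p = 0.00291). These examples were also picked after their values were seen.

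The comparison of cultured groups took in each probe that both arrays of some cultured group showed well above background. This kept 379 of the 923 ASMM10UP probes, a different set from the 379 never detected, and 44078 probes of the whole array. The other 544 gave no test between cultured groups. Among those tested, 293 were well above background on all 6 cultured arrays, and 43 entered through 1 group only (27 through knockout, 8 through Myocd and 8 through wild-type cells). A probe of the last kind passed because it was high in that group. A call needed an adjusted p under 0.05 over all 44078 probes in limma.

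Knockout cells differed from wild-type cells in 36 of the 379 tested ASMM10UP probes, with 18 higher and 18 lower in knockout cells. That is 4.75% in each direction. Over all 44078 tested probes, 12.2% were called higher and 8.40% lower. Because call rates vary with brightness, the share was also set against tested probes outside the class at the same mean level, in 50 bins of level. At that level 18.96% of other probes were called, against 9.50% of ASMM10UP probes, a ratio of 0.501. The higher calls had the lower ratio, at 0.384, and the lower calls a ratio of 0.719. These ratios describe the class and carry no test. The split was not even under every scaling, since 14 were higher and 21 lower after quantile normalization and 16 and 28 after normexp background correction. Leaving out 1 array moved the count to 7 (without knockout array 1), 16 (without knockout array 2) or 72 (without wild-type array 2), while the ratio stayed between 0.302 and 0.713.

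Changes with knockout were mostly small. Among called probes measured in both groups, the 13 higher ones rose 1.55-fold to 2.63-fold (median 2.07) and the 15 lower ones fell 1.498-fold to 5.40-fold (median 1.95). A change of 4-fold or more was fitted for 3 called probes (0.792%), against 3.34% of all tested probes and 3.57% of other probes at the same level. Over all 379 tested ASMM10UP probes the median absolute log2 change was 0.29, against 0.36 for others at the same level. The median change itself was 0.08, against 0.07 over all tested probes and 0.13 for others at the same level.

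ASMM10UP318 had the deepest fall among probes measured in both groups. It stood at -3.53 and -3.64 in knockout cells, -0.53 and -0.84 in Myocd cells, -3.34 in aorta, -2.56 in liver, and -1.31 and -0.998 in wild-type cells. Both knockout arrays lay far below both wild-type arrays, whose means were -3.59 ± 0.07 and -1.15 ± 0.22 (SD, n = 2 each). The log2 change was -2.43 (SE 0.18, limma, adjusted p = 0.000685), which is 5.40-fold lower in knockout cells. After normexp background correction it was 2.89-fold lower. Myocd arrays lay above both wild-type arrays, but that difference of 0.47 missed the threshold in limma (adjusted p = 0.151).

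ASMM10UP453 also fell. Its levels were 0.79 and 1.38 in knockout cells, 1.71 and 1.82 in Myocd cells, -0.51 in aorta, -2.16 in liver, and 2.84 and 2.18 in wild-type cells. The knockout arrays lay below both other cultured groups, and the change against wild type was -1.42 (SE 0.29, limma, adjusted p = 0.0212). Without wild-type array 1 or knockout array 1 this adjusted p was 0.0524 and 0.126. Aorta and liver were lower still.

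The 2 largest rises with knockout among called probes measured in both groups were ASMM10UP484 and ASMM10UP868. ASMM10UP484 stood at -0.50 and -0.64 in knockout cells, -2.49 and -3.16 in Myocd cells, 0.11 in aorta, -1.85 in liver, and -1.83 and -2.10 in wild-type cells. It was 2.63-fold higher in knockout than in wild-type cells (log2 change 1.40, SE 0.25, limma, adjusted p = 0.0138), and the adjusted p was 0.0962 or 0.0633 without 1 of the knockout arrays. ASMM10UP868 stood at 0.92 and 1.07 in knockout cells, -0.93 and -1.20 in Myocd cells, 1.38 in aorta, 1.09 in liver, and -0.26 and -0.29 in wild-type cells. Its knockout arrays did not overlap with those of any other cultured group, and the log2 change of 1.27 (SE 0.16) was called in limma (adjusted p = 0.00419). For both probes, aorta was brighter than every cultured array.

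Of the 36 called probes, 3 of the higher and 3 of the lower were not well above background on either array of the dimmer group, so only a bound can be given. The deepest was ASMM10UP756, named here after its values were seen. It stood at -6.27 and -6.19 in knockout cells, -1.51 and -1.50 in Myocd cells, -4.77 in aorta, -5.66 in liver, and -1.56 and -2.04 in wild-type cells. It was detected on the 4 arrays of cultured wild-type cells, with either virus, and on none of the other 4 arrays. Knockout cells were at least 9.07-fold lower than wild-type cells (limma, adjusted p = 0.000133). The bound uses each dim array's own detection floor where the probe lay under it. It does not hold after normexp background correction, where the fitted change was 3.05-fold. The remaining probe with a fitted change of 4-fold or more was ASMM10UP662, detected only in wild-type cells with the empty virus (-3.90 and -4.04), and it was at least 2.01-fold lower in knockout cells (1.40-fold after normexp). It was tested only because it was high in wild-type cells, so no p is given for it.

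The calls were not spread evenly over the level range. Above a mean level of 0 there were 65 tested ASMM10UP probes, of which 11 (16.9%) were called with knockout, 1 higher and 10 lower. Below -4 there were 108, with 6 called higher and 2 lower (7.41% in all). Other probes were called at 24.1% above 0 and 18.9% below -4. In each of the 4 level bands (below -4, -4 to -2, -2 to 0 and above 0), ASMM10UP probes were called less often than other probes in this contrast, a description without a test.

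Myocd cells differed from wild-type cells with the empty virus in 37 of the 379 tested probes, 21 higher (5.54%) and 16 lower (4.22%) in Myocd cells. Over all tested probes 7.99% were called higher and 7.20% lower. At the same level 13.8% of other probes were called, against 9.76% of ASMM10UP probes, a ratio of 0.708. The count fell to 18 without the knockout arrays in the fit, to 16 without Myocd array 1 and to 11 without Myocd array 2, and it reached 61 without wild-type array 2. These arrays lay on different slides, so every value of this contrast holds the slide as well as Myocd. Below a mean level of -4 the shares were nearly equal, with 13.9% of ASMM10UP probes and 13.5% of other probes called. Of the 37 calls, 7 of the higher and 6 of the lower were not well above background on either array of the dimmer group. Among these lower calls, ASMM10UP853 was detected in neither group compared and was tested through knockout cells only.

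Among called probes measured in both groups, 12 rose 1.55-fold to 3.33-fold (median 1.98) and 10 fell 1.58-fold to 3.09-fold (median 1.73) with Myocd. A fitted change of 4-fold or more was called for 4 probes (1.06%), against 2.29% of all tested probes and 2.49% of others at the same level. All 4 were dim in 1 of the groups, and their changes are given only as bounds.

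ASMM10UP267 rose most among probes measured in both groups. It stood at -1.39 and -1.44 in knockout cells, 0.19 and 0.30 in Myocd cells, -0.91 in aorta, 0.03 in liver, and -1.50 and -1.48 in wild-type cells. The Myocd arrays lay above all 4 other cultured arrays, while knockout and wild-type arrays lay close together. Myocd cells were 3.33-fold higher than wild-type cells (log2 change 1.74, SE 0.14, limma, adjusted p = 0.0011). Aorta and liver, which shared slide 2 with the Myocd arrays, were also above the wild-type cells.

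ASMM10UP089 was higher in both altered groups. It stood at -2.01 and -2.30 in knockout cells, -2.04 and -2.01 in Myocd cells, 0.05 in aorta, -0.79 in liver, and -3.30 and -3.51 in wild-type cells. Against the same wild-type arrays, the log2 change was 1.38 with Myocd (SE 0.17, limma, adjusted p = 0.00487) and 1.25 with knockout (limma, adjusted p = 0.00528). The change with Myocd was 0.62 after normexp. All other arrays were above the wild-type cells, aorta most.

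The 2 largest falls with Myocd among called probes measured in both groups were ASMM10UP627 and ASMM10UP843. ASMM10UP627 stood at 0.87 and 0.88 in knockout cells, -0.04 and -0.37 in Myocd cells, -0.46 in aorta, and 1.72 and 1.12 in wild-type cells, and was not well above background in liver (-3.28). The log2 change with Myocd was -1.63 (SE 0.24, limma, adjusted p = 0.00902), and the adjusted p was 0.0641 without Myocd array 2. ASMM10UP843 stood at -2.80 and -2.56 in knockout cells, -3.17 and -2.90 in Myocd cells, -3.66 in aorta, and -1.59 and -1.70 in wild-type cells, and was not well above background in liver (-4.15). Its log2 change was -1.39 with Myocd (SE 0.17, limma, adjusted p = 0.00515) and -1.04 with knockout (limma, adjusted p = 0.0107). For all 4 of these probes the tissue arrays on slide 2 lay on the same side of the wild-type cells as the Myocd arrays did, and so did both knockout arrays on slide 1.

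Some probes were detected with Myocd and in no other group, or were dim with Myocd and detected in wild-type cells. These too were chosen after their values were seen. ASMM10UP121 stood at -2.02 and -2.22 in Myocd cells and at -7.40 to -5.77 on the other 6 arrays, none of which detected it. Myocd cells were at least 7.33-fold higher than wild-type cells on this scale, and 2.85-fold after normexp. ASMM10UP273 stood at -3.15 and -3.11 in Myocd cells and was at least 3.65-fold higher there, and 1.85-fold after normexp. Both were tested only because they were high in Myocd cells, so no p is given for them. For both probes, aorta and liver on the same slide were not well above background, at -6.68 and -5.77 for ASMM10UP121 and at -6.49 and -4.72 for ASMM10UP273. Going the other way, ASMM10UP306 was dim in Myocd cells (-6.51 and -5.82) and in aorta (-4.46). It was detected in knockout cells (-3.98 and -4.28), liver (-1.90) and wild-type cells (-3.67 and -4.04). Myocd cells were at least 1.82-fold below wild type (limma, adjusted p = 0.00444) and 1.502-fold below it after normexp. ASMM10UP662, dim in every group but wild-type cells, was at least 1.69-fold lower with Myocd.

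Myocd and knockout cells were set directly against each other as the third contrast, which also crosses slides and shares its arrays with the other 2. It called 54 of the 379 tested probes, 25 higher (6.60%) and 29 lower (7.65%) in Myocd cells. Over all tested probes 11.7% were called higher and 16.2% lower. At the same level 25.7% of other probes were called, against 14.2% of ASMM10UP probes, a ratio of 0.553. The split turned to 33 higher and 23 lower after quantile normalization, 34 and 28 after normexp background correction and 27 and 23 in the authors' deposited table, so no excess in either direction can be read from it. The count was 82 without either wild-type array, 21 and 27 without knockout array 1 or 2, and 29 without Myocd array 2.

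Called probes measured in both groups of this contrast comprised 19 that were higher in Myocd cells, by 1.43-fold to 7.47-fold (median 2.06), and 19 that were lower, by 1.41-fold to 4.79-fold (median 1.98). A fitted change of 4-fold or more was called for 9 probes (2.37%), against 5.82% of all tested probes and 6.04% of others at the same level. ASMM10UP318, with the levels given above, had the largest rise among them, 7.47-fold, or 2.90 on the log2 scale (SE 0.18, adjusted p = 0.000184 in limma). After normexp it was 3.66-fold. ASMM10UP087 followed, at 1.87 and 2.40 in Myocd cells, -0.09 and 0.13 in knockout cells, -1.28 in aorta, and 1.25 and 0.31 in wild-type cells. It was 4.33-fold higher in Myocd than in knockout cells (SE 0.34 on the log2 scale, limma, adjusted p = 0.00643) and was not well above background in liver. The largest falls among them were those of ASMM10UP484, 4.79-fold (limma, adjusted p = 0.00147) and 2.84-fold after normexp, and ASMM10UP868, 4.16-fold (limma, adjusted p = 0.000378), the 2 probes with the largest rises given for knockout. For ASMM10UP756, dim in knockout cells, Myocd cells were at least 11.1-fold higher (limma, adjusted p = 4.94e-05), and 3.42-fold after normexp.

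Of all calls of this contrast, 4 of the higher and 9 of the lower were not well above background on either array of the dimmer group. The remaining 4-fold calls were dim on 1 side. ASMM10UP121 and ASMM10UP273 were at least 7.24-fold and at least 3.60-fold higher in Myocd cells, and 2.75-fold and 1.85-fold after normexp. ASMM10UP306 was at least 1.51-fold lower in Myocd cells (limma, adjusted p = 0.00316), as was ASMM10UP853, for which no p is given. After normexp these 2 probes were 1.34-fold and 1.33-fold lower. ASMM10UP853 was the only probe of the class detected in knockout cells alone, at -3.93 and -4.33, and was tested only because it was high there. It was at least 1.83-fold higher in knockout than in wild-type cells, and 1.16-fold after normexp.

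Over the 3 contrasts together, 78 of the 379 tested ASMM10UP probes (20.6%) were called at least once and 301 in none, against 36.9% called at least once among other tested probes. The shares were of similar size among brighter probes. Among the 293 probes detected on all 6 cultured arrays, 32 were called with knockout (10.9%), 28 with Myocd (9.56%) and 44 between Myocd and knockout (15.0%). All probes detected on all 6 arrays were called at 23.3%, 17.2% and 29.4% in these contrasts, and others at the same level at 20.5%, 15.0% and 25.8%. Median precision was similar, with a median SE of 0.207 for ASMM10UP probes and 0.200 for others at the same level. The median absolute difference between replicates, on the log2 scale, was 0.186 against 0.166 at the same level in knockout cells, 0.176 against 0.159 in Myocd cells, and 0.272 against 0.272 in wild-type cells. The 90th percentile of this difference was higher for ASMM10UP probes in each group. It was 0.592 against 0.494 in knockout cells, 0.563 against 0.492 in Myocd cells, and 0.809 against 0.743 in wild-type cells. The part of this spread in the lower call rates was not tested.

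The humanlincRNA and mouselincRNA classes also had call rates below those of other probes at their level. For humanlincRNA probes the ratios were 0.424 with knockout, 0.403 with Myocd and 0.420 between Myocd and knockout. For mouselincRNA probes they were 0.431, 0.560 and 0.434. ASMM10UP probes had a higher ratio than both classes in each of these contrasts, at 0.501, 0.708 and 0.553, a difference that was not tested.

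Aorta and liver, each on 1 array of the same slide, allow no test, and probes were counted that lay at least 4-fold apart. Of 437 ASMM10UP probes detected in at least 1 of these tissues, 53 (12.1%) were higher and 101 (23.1%) lower in aorta than in liver. Over all 45133 probes so measured, 16.1% were higher and 15.5% lower, and at the same level other probes were at 17.5% and 16.5%. With both tissues well above background, 21 were higher and 40 lower. The excess on the liver side depended on the processing, since 24 were higher and 15 lower in aorta after normexp background correction. After quantile normalization the counts were 67 and 92, with the larger count still on the liver side. The authors' deposited table gave 57 and 45. It holds only the 365 ASMM10UP probes called on 4 or more arrays, so its counts rest on a different set of probes. The median difference was -0.94 for ASMM10UP probes and -0.46 for all probes. Both medians were below 0 on this scale. Background also lay lower in aorta than in liver after scaling. The MM9NEGATIVE median was -6.57 in aorta and -5.64 in liver, and the detection floor -4.42 and -3.52. The part of this offset in the median difference and in the split was not tested.

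Among probes well above background in both tissues, those furthest apart were bright on at least 1 side. ASMM10UP109 stood at 2.94 in aorta and -2.99 in liver, 60.8-fold higher in aorta, and lay between 3.54 and 4.27 on the 6 cultured arrays. ASMM10UP403 stood at 3.94 in aorta and -1.38 in liver, 40.0-fold higher in aorta, with cultured levels of 3.84 to 4.49. Both were thus near their aorta level or above it in all cultured cells, and no contrast between cultured groups called either. ASMM10UP787 stood at -0.61 in aorta and 4.31 in liver, 30.2-fold lower in aorta, and ASMM10UP755 at -2.02 and 2.88, 29.8-fold lower. The cultured arrays held these 2 probes at -0.23 to 0.03 and at -2.82 to -2.24, close to aorta, and again no contrast called them.

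Aorta was also set against wild-type cells in culture, across slides. Of 400 ASMM10UP probes detected in aorta or in both wild-type arrays, 47 (11.8%) were at least 4-fold higher in aorta and 22 (5.50%) lower. Over all 45021 probes so measured, 12.8% were higher and 9.60% lower, and at the same level other probes were at 17.2% and 7.90%. With all 3 arrays well above background, 16 were higher and 14 lower. The authors' deposited table, which holds only the ASMM10UP probes called on 4 or more arrays, gave 15 higher and 24 lower. That table differs in both processing and set of probes, and their parts in the turned split cannot be told apart.

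Among probes well above background in aorta and on both wild-type arrays, ASMM10UP152 was the furthest above wild-type cells. It stood at 0.55 in aorta, -1.41 in liver, -2.72 and -3.001 in knockout cells, and -3.99 and -3.89 in wild-type cells, and was not well above background in Myocd cells (-4.98 and -4.70). Aorta was 22.5-fold higher than wild-type cells. ASMM10UP748 stood at 0.56 in aorta, -2.93 in liver, -2.13 and -2.19 in knockout cells, -3.49 and -3.44 in Myocd cells, and -3.14 and -3.43 in wild-type cells, 14.3-fold higher in aorta than in wild-type cells. Both probes were called higher in knockout than in wild-type cells in limma, by 1.08 (adjusted p = 0.0106) and 1.12 (adjusted p = 0.00624) on the log2 scale.

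Among the same probes, ASMM10UP053 and ASMM10UP586 were furthest below. ASMM10UP053 stood at -2.32 in aorta, 0.16 and 0.40 in knockout cells, 0.52 and 0.34 in Myocd cells, and 1.64 and 1.03 in wild-type cells, 12.5-fold lower in aorta than in wild-type cells, and was not well above background in liver. Its fall of 1.05 on the log2 scale with knockout was called in limma (adjusted p = 0.028). ASMM10UP586 stood at -2.19 in aorta, -2.86 in liver, -1.54 and 0.03 in knockout cells, -0.83 and 0.23 in Myocd cells, and 1.33 and 1.07 in wild-type cells, 10.5-fold lower in aorta than in wild-type cells. Its replicates were far apart in both altered groups, and neither change against wild type passed the threshold in limma (adjusted p = 0.0593 with knockout and 0.139 with Myocd). After normexp the log2 differences between aorta and wild-type cells were 2.93 for ASMM10UP152, 2.67 for ASMM10UP748, -2.99 for ASMM10UP053 and -2.91 for ASMM10UP586. A tissue holds several cell types, so fewer cells of a type and less RNA per cell cannot be told apart in these 2 comparisons.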

How the data were processed

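Per the file headers, the authors read 8 one-colour arrays with Agilent Feature Extraction, version 11.0.1.1, and each spot has a processed intensity. This version also stands in the submitters' processing notes. A second deposited table holds the authors' log2 values of 42995 probes, and the sources used here do not give its normalization. It followed the scanner values of the same arrays (Pearson's r across probes 0.997 to 1.00) and served as an alternative. Outlier-flagged spots were left out (2 of the class on Myocd array 1, and 1 on each wild-type array), control spots were dropped and spots of 1 probe were averaged. Levels were scaled to the 75th percentile of each array.

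Group means over the 6 cultured arrays were compared with limma 3.58.1 in R 4.3.3 (lmFit and eBayes, two-sided, Benjamini-Hochberg over 44078 probes). SE is that of the log2 change. Of the tested ASMM10UP probes, 3 lacked 1 array, dropped for that probe only. The share of other probes at the same level is their call share in each of 50 bins of mean level, weighted by the number of class members in the bin. For a bound, a dim array counts at the lowest level well above background, or at the probe's own level where that is higher.

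The probe class and its comparisons were chosen with earlier results of these data known. Named per comparison were the 2 largest rises and 2 largest falls among called probes detected on every array compared (for tissues, at least 4-fold apart), and the 2 brightest probes overall. Others are marked where they appear. Alternatives were quantile normalization, normexp with an offset of 50 (on median signals, as the mean signals were not used here), the authors' log2 table, other filters, eBayes with trend, array weights, a replicate block and leaving out each array. The number of arrays limits the precision. No probe sequence was available here, so none is printed.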

Additional observations from a re-analysis of the deposited data

How the results depend on the processing

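Of 48 alternative counts of called ASMM10UP probes, 30 stayed within 1.5 times the value reported. The knockout count (36) ranged from 7 to 72 when 1 array was left out, the Myocd count (37) from 11 to 61 and the count between Myocd and knockout (54) from 21 to 82. In those fits the lone array is assumed to vary like the others. The Myocd count was 24 with array weights, 23 with a replicate block and 18 with only the groups compared. The count between Myocd and knockout was 98 with array weights and 82 with only the groups compared. The share of called probes relative to others at the same level stayed under 1 in all alternatives run. It ranged from 0.302 to 0.713 with knockout, 0.562 to 0.860 with Myocd and 0.434 to 0.642 between Myocd and knockout when 1 array was left out, and was 0.709 between Myocd and knockout with array weights.

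Same-numbered replicates did not deviate together (r of -0.26 between knockout and wild type, 0.09 between Myocd and knockout, -0.07 between Myocd and wild type), so the numbers are not taken as pairs. With the replicate number as a block, the counts were 32 with knockout, 23 with Myocd and 43 between them. With the wild-type numbers crossed, an alternative added after seeing the data, they were 43, 42 and 58.

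Probes 4-fold apart between aorta and liver (154) were 39 after normexp, 102 in the authors' deposited table, 61 with both tissues well above background, and 301 at 2-fold. Those between aorta and wild-type cells (69) were 18, 39, 30 and 167. The authors' table holds only the 365 ASMM10UP probes called on 4 or more arrays, so its counts cover fewer probes. With the scanner's weaker call (positive and significant), detected ASMM10UP probes numbered 593 and 665 in knockout cells, 558 and 587 in Myocd cells, 581 in aorta, 588 in liver, and 622 and 582 in wild-type cells. These were 60.5% to 72.0% of the class per array, against 81.9% to 89.9% of ASMM10P probes. Of the alternative values for named probes, 369 kept their direction and their side of the threshold (4-fold for tissues) and 5 lost the call, all given with ASMM10UP484, ASMM10UP453 and ASMM10UP627, and none reversed. Normexp gave fitted changes below the bounds stated for dim probes, with 3.05-fold for ASMM10UP756 with knockout and 2.85-fold for ASMM10UP121 with Myocd. It also gave -1.53 for ASMM10UP318 with knockout, a probe detected on all 8 arrays. Dim signals limit the class, since 544 of 923 probes were not well above background on both arrays of any cultured group. The cause of these shifts was not tested.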

Other observations

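The number in a probe's name carried little information about its level. Across the 922 pairs of ASMM10UP probes with consecutive numbers, the mean levels over the 8 arrays had a Pearson correlation of 0.11, and it was -0.0031 at a distance of 2 and 0.068 at a distance of 3. Probes are not independent replicates, and these values are a description.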
